A study of Mus musculus with 9 samples.

Results

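The transcripts described here are those of Cd5l, Cd209f, Cd209b, Vcam1, Cd163, C1qa, C1qb, C1qc, Axl and Mertk, 10 genes listed as those of macrophages resident in the bone marrow, taken by symbol from a table of 23337 genes. They were read in CD11b+ cells, the myeloid cells of the marrow, from 9 male C57BL/6 mice obtained at 3 to 6 weeks of age. PBS mice received vehicle in the tail vein. EnzR EV mice received extracellular vesicles made by enzalutamide-resistant CWR-R1 human prostate cancer cells, in 3 injections 48 h apart. EnzR EV + HDL NP mice received the same vesicles and, on the alternate days, HDL NPs, which are particles with a gold core, apolipoprotein A-1 and phospholipid that imitate high-density lipoprotein. Each group held 3 mice, marrow was taken 24 h after the last injection, and no group was given HDL NPs alone. For the HDL NPs the labels state 1 µM and the methods 100 µM. Red cells were lysed before the CD11b+ cells were selected, and the vesicles came from 1 human line.

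Marrow resident macrophages sit at the centre of erythroid islands, take up the nuclei that maturing red cells expel, clear dying cells and recycle iron from haemoglobin. Bridging molecules and receptors tag and bind the dying cell: C1q coats it, AXL and MERTK recognise its exposed phosphatidylserine through GAS6, and CD163 takes up haemoglobin bound to haptoglobin. CD5L is a protein that macrophages secrete under the control of liver X receptors, which sense cholesterol derivatives, VCAM1 holds cells that carry the integrin alpha4 beta1, and CD209f and CD209b are lectins of the SIGN family. Because whole CD11b+ fractions were sequenced, fewer macrophages and less RNA per macrophage cannot be told apart.

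Total counts ran from 2575776 in EnzR EVs replicate 1 to 18110561 in EnzR EVs replicate 2. Counts on the ribosomal RNA gene Rn45s made up 42.7% in EnzR EVs replicate 1, 14.2% in EnzR EVs replicate 3 and 20.3% in PBS replicate 1, and 0.657% to 2.87% in the other 6 libraries, and values without those 3 libraries stand beside many of the results. Levels are counts relative to the library total, scaled by TMM factors (CPM), and 12553 genes, among them 9 of the 10 described here, passed the filter on low counts. All 30 other genes of resident macrophages passed the filter, which is set over the 9 libraries, and Emr1, a surface receptor used as a general macrophage marker, ranged from 68.6 to 178 CPM. Not every one of the 30 was well above detection in each library: Marco, a scavenger receptor named after its values were seen, was at 0, 0.905 and 0.118 CPM in EnzR EV mice, where 3 counts correspond to 1.65, 0.160 and 0.355 CPM. The fraction also held much RNA of other myeloid cells. Summed CPM of 17 neutrophil markers ranged from 35752 to 160604 across the 9 libraries, against 474 to 1051 for the 10 macrophage genes. Nothing in the labels names a sequencing batch.

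Among the genes, levels per kilobase of exon in PBS mice were led by the complement chains. C1qa stood at 62.9 ± 22.2 CPM per kb (SD, n = 3) and C1qb at 54.8 ± 10.4, followed by Axl at 34.7 ± 8.10, Vcam1 at 33.1 ± 11.1, C1qc at 30.4 ± 12.5 and Cd5l at 30.2 ± 9.66. Cd163 at 8.25 ± 2.43 and Mertk at 5.09 ± 2.603 came next, above Cd209f at 1.99 ± 1.64 and Cd209b at 0.0904 ± 0.0783. The ranges of mean ± SD of neighbours in this order overlapped, except at the steps from C1qb to Axl, from Cd5l to Cd163 and from Cd209f to Cd209b. C1qb, C1qc and C1qa lie side by side on the minus strand of chromosome 4 (GRCm38) within 18.7 kb, at chr4:136880129-136886187, chr4:136889804-136893065 and chr4:136895917-136898803. Cd209b and Cd209f, both on the minus strand of chromosome 8, belong to the same lectin cluster and span 188 kb from chr8:3917655 to chr8:4105835.

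In mice given EnzR EVs, Cd5l and Axl were lower in each of the 3 mice than in any PBS mouse, as was Vcam1, and the fitted log2 fold change of Cd209f was -2.48, ranging from -1.75 without PBS replicate 3 to -3.11 without the 3 Rn45s-rich libraries. The C1q chains differed from each other: C1qc stood below PBS on average, C1qa close to it and C1qb above it. None of these differences passed adjustment over all genes. All 10 genes were picked with earlier results of these same libraries in view, so neither their direction nor their counts against all genes are independent evidence.

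Cd5l (chr3:87357881-87371073, plus strand) was at 54.7, 46.0 and 83.6 CPM in PBS replicates 1, 2 and 3, at 33.5, 31.2 and 24.2 CPM in the EnzR EV mice, and at 46.0, 29.4 and 29.1 CPM in the EnzR EV + HDL NP mice. The EnzR EV mice all lay below the PBS mice, and the highest EnzR EV + HDL NP mouse lay below the lowest PBS mouse by less than the rounding of 46.0 CPM. The log2 fold change of EnzR EVs against PBS was -1.07 (SE 0.273, 2.09-fold lower, unadjusted p = 0.0027, adjusted p = 0.928 by edgeR's quasi-likelihood test), and the two-sided exact permutation p was 0.10, the smallest that 3 mice against 3 can give. Over the other settings of the analysis the adjusted p ranged from 0.0280 to 1.00, and it was below 0.05 only with limma's sample quality weights.

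Axl (chr7:25757273-25788705, minus strand), a receptor tyrosine kinase that binds GAS6, was at 154, 148 and 221 CPM in PBS mice, at 110.3, 100.3 and 95.9 CPM in EnzR EV mice and at 118, 97.3 and 103 CPM in EnzR EV + HDL NP mice. Both groups that received vesicles lay wholly below PBS. The log2 fold change was -0.78 (SE 0.186) for EnzR EVs against PBS and -0.72 (SE 0.184) for EnzR EVs + HDL NPs against PBS, the same PBS mice serving both. By unadjusted p Axl ranked 16 and 11 of 12553 genes, with edgeR adjusted p = 0.928 and 1.00. The related receptor Mertk (chr2:128698956-128802894, plus strand) overlapped between PBS, at 12.8, 18.8 and 34.7 CPM, and EnzR EVs, at 10.97, 14.4 and 8.75 CPM, with a log2 fold change of -0.96 (SE 0.353, edgeR adjusted p = 0.928) that was -0.46 without PBS replicate 3.

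Vcam1 (chr3:116109949-116129688, minus strand) was at 206, 274 and 401 CPM in PBS mice, at 174, 194 and 172 CPM in EnzR EV mice and at 294, 196 and 219 CPM in EnzR EV + HDL NP mice. All EnzR EV mice lay below the other 6, by a narrow gap to EnzR EVs + HDL NPs replicate 2. The log2 fold change against PBS was -0.71 (SE 0.245) for EnzR EVs and -0.31 (SE 0.243) for EnzR EVs + HDL NPs, with edgeR adjusted p = 0.928 and 1.00, and it was -0.41 and -0.03 without PBS replicate 3, the highest of the 9 mice. Vcam1 is also made by stromal and endothelial cells, whose 20 markers summed to 50.9 to 132 CPM in PBS mice, 65.3 to 117 in EnzR EV mice and 79.2 to 95.5 in EnzR EV + HDL NP mice, with none at 0 in all libraries. Their part in the Vcam1 level was not tested.

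Cd209f (chr8:4102787-4105835, minus strand) was the least abundant gene that could be tested. It had 4, 69 and 126 counts in PBS mice, 1, 12 and 8 in EnzR EV mice and 50, 34 and 22 in EnzR EV + HDL NP mice. These correspond to 0.704, 3.97 and 7.21 CPM, to 0.549, 0.639 and 0.946 CPM and to 2.81, 2.03 and 1.54 CPM. PBS replicate 1, with 20.3% of its counts on Rn45s, fell among the EnzR EV mice, while the other PBS mice and the EnzR EV + HDL NP mice lay above them. The log2 fold change of EnzR EVs against PBS was -2.48 (SE 0.702, 5.59-fold lower, unadjusted p = 0.0050, adjusted p = 0.928 by edgeR), and counting error alone gives 95% Poisson limits of 0.0253 to 5.57 on the single count in EnzR EVs replicate 1. The value rested on single libraries: it was -1.75 without PBS replicate 3 and -3.11 without the 3 Rn45s-rich libraries, a fit that leaves EnzR EVs replicate 2 alone in its group. Cd209b, the nearest relative in the set, had 18 counts over all 9 libraries, from 0 to 5 in each, and was not tested. By a one-sided limit of 3 counts, which is narrower than the two-sided limits above, the 3 libraries with 0 counts allow up to 0.528 CPM in PBS replicate 1, 0.355 CPM in EnzR EVs replicate 3 and 0.179 CPM in EnzR EVs + HDL NPs replicate 2.

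Cd163 (chr6:124304656-124330527, plus strand) was at 41.2, 34.2 and 59.8 CPM in PBS mice, at 40.1, 27.7 and 29.1 CPM in EnzR EV mice and at 30.8, 23.2 and 36.3 CPM in EnzR EV + HDL NP mice. The groups overlapped. Its log2 fold change was -0.51 (SE 0.260) for EnzR EVs and -0.59 (SE 0.253) for EnzR EVs + HDL NPs against PBS, with edgeR adjusted p = 0.928 and 1.00, and it was -0.23 and -0.33 without PBS replicate 3. Haptoglobin, its partner, was expressed in the fraction itself at 984 to 1553 CPM, with a log2 fold change of 0.18 (SE 0.212) for EnzR EVs against PBS.

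**Figure D1:**
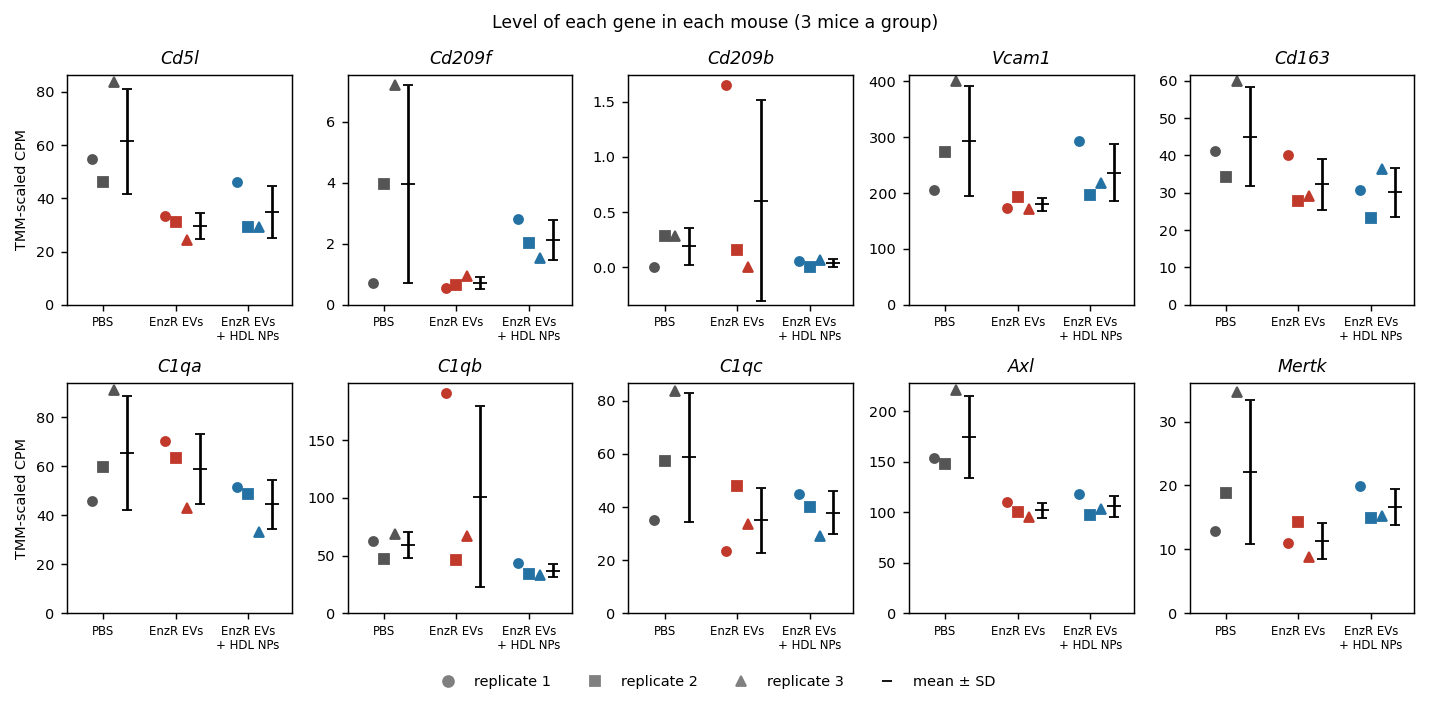
Level of each of the 10 genes in TMM-scaled CPM (vertical axis, a separate scale for each gene) in PBS, EnzR EV and EnzR EV + HDL NP mice. Points are mice, with the shape giving the replicate, and bars are the mean ± SD of 3 mice; EnzR EV mice lie below all PBS mice for Cd5l, Vcam1 and Axl, and PBS replicate 3 is the highest PBS mouse for 9 of the 10 genes.

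The 3 chains of C1q, which assemble into 1 molecule, differed in their pattern. C1qa was at 45.8, 59.6 and 90.9 CPM in PBS mice, 70.2, 63.2 and 42.9 CPM in EnzR EV mice and 51.4, 48.9 and 33.1 CPM in EnzR EV + HDL NP mice. C1qc was at 35.2, 57.5 and 83.5 CPM, at 23.6, 47.95 and 33.6 CPM, and at 44.8, 40.1 and 29.0 CPM in the same groups. C1qb was at 63.0, 46.9 and 68.9 CPM, at 191, 45.9 and 66.9 CPM, and at 43.5, 34.3 and 33.3 CPM. The value of 191 CPM in EnzR EVs replicate 1 was the highest of the 9.

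Within a library, the CPM of C1qb was 1.38, 2.72 and 1.56 times that of C1qa in the 3 libraries with over 10% of counts on Rn45s (PBS replicate 1, EnzR EVs replicate 1 and EnzR EVs replicate 3), and 0.701 to 1.00 times in the other 6. The ratio of C1qc to C1qa was 0.336 in EnzR EVs replicate 1 and 0.758 to 0.964 in the other 8. This split was noticed after the values had been seen. It separates libraries by a measure of their RNA and not by group alone, and the part that library quality has in it was not tested. The log2 fold change of C1qb for EnzR EVs against PBS was 0.73 (SE 0.433, edgeR adjusted p = 0.928), and it was -0.08 without EnzR EVs replicate 1 and -0.33 without the 3 Rn45s-rich libraries. Those of C1qa and C1qc were -0.17 (SE 0.287) and -0.72 (SE 0.332), and 0.16 and -0.37 without PBS replicate 3.

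**Figure D2:**
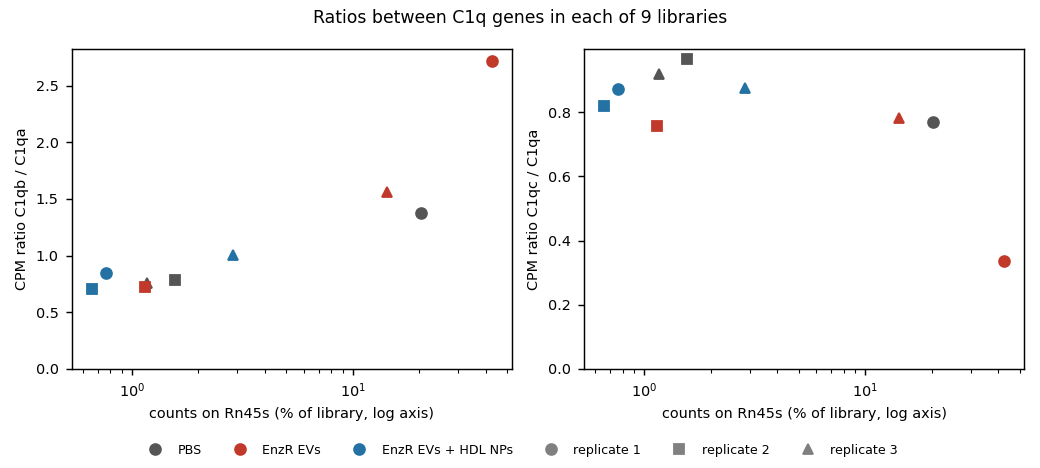
Ratio of C1qb to C1qa (left) and of C1qc to C1qa (right) in CPM, on the vertical axis, against the percentage of counts on Rn45s on a log axis, for each of 9 libraries. Colours are groups and shapes are replicates; C1qb reaches 1.38 to 2.72 times C1qa in the 3 Rn45s-rich libraries and 0.701 to 1.00 times in the others.

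Of the 9 genes tested for EnzR EVs against PBS, 8 had a log2 fold change below 0, against 53.5% of all genes tested. By edgeR, 0 of 9 passed an adjusted p of 0.05, as did 0% of all genes. At an unadjusted p below 0.05, 436 genes were counted over the whole table, and 5 of the 9 (Cd5l, Cd209f, Vcam1, Axl and Mertk) were lower against 1.92% of all genes, and 0 were higher against 1.55%. Every EnzR EV mouse was lower than every PBS mouse for 3 of 9, against 4.52% of all genes. DESeq2 called 0 of the 9 and 8 genes in all. The median log2 fold change was -0.72 for the 9 genes and -0.03 for all genes.

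PBS replicate 3 had the highest level of most of the genes. Without it the median moved to -0.41, and the unadjusted count went from 5 to 3 (Cd5l, Cd209f and Axl), against 0.669% of all genes lower in that fit. Without the 3 Rn45s-rich libraries the median was -0.80. This leaves EnzR EVs replicate 2 alone in its group, to be taken as varying like the others, and in PBS only replicates 2 and 3. In that fit the log2 fold changes of Cd5l, Axl and Vcam1 were -1.05, -0.88 and -0.80, those of Cd163 and Mertk -0.76 and -0.89, and those of C1qa and C1qc -0.25 and -0.55.

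With HDL NPs given beside EnzR EVs, all 9 genes tested had a log2 fold change below 0 against PBS, against 51.1% of all genes, from -0.96 (SE 0.571) for Cd209f to -0.31 (SE 0.243) for Vcam1. Cd5l stood at -0.82 (SE 0.265, 1.77-fold lower). By edgeR 0 of 9 passed an adjusted p of 0.05 (0% of all genes), with 268 genes of the whole table at an unadjusted p below 0.05 and 7 called by DESeq2, none of them among the 9. At an unadjusted p below 0.05, 3 of 9 were lower (Cd5l, Cd163 and Axl) against 1.12% of all genes, and 0 were higher against 1.02%. Every mouse was lower for 3 of 9 (Cd5l, C1qb and Axl) against 6.21%. The median was -0.64, against -0.01 for all genes. Without PBS replicate 3 the median was -0.30, 1 of 9 (Axl) was lower at an unadjusted p below 0.05 against 1.17% of all genes, Cd5l went from -0.82 to -0.54, Cd209f from -0.96 to -0.25 and Vcam1 from -0.31 to -0.03, and Mertk had a log2 fold change of 0.06. Without the 3 Rn45s-rich libraries all 9 had a log2 fold change below 0, against 50.2% of all genes. In PBS that fit leaves only replicate 2 and replicate 3, the mouse with the highest level of most of the genes. The median was then -0.76, from -1.38 for Cd209f to -0.51 for Vcam1.

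Between EnzR EVs + HDL NPs and EnzR EVs, Cd209f, Vcam1 and Mertk were higher in each EnzR EV + HDL NP mouse than in any EnzR EV mouse, and C1qb was lower. The separation of Cd209f lies within counting error. Its 95% Poisson limits in EnzR EVs replicate 1, 0.0139 to 3.06 CPM, hold the EnzR EV + HDL NP values of 2.81, 2.03 and 1.54 CPM. For Cd209f the log2 fold change was 1.52 (SE 0.710, 2.87-fold, adjusted p = 0.461 by edgeR, exact permutation p = 0.10). Mertk, at 19.9, 14.8 and 15.2 CPM in EnzR EV + HDL NP mice, had a log2 fold change of 0.53 (SE 0.351) and Vcam1 of 0.39 (SE 0.245), neither past the threshold. Without the 3 Rn45s-rich libraries, which leaves EnzR EVs replicate 2 alone in its group, the values were 1.73 for Cd209f, 0.21 for Mertk and 0.28 for Vcam1, and without EnzR EVs + HDL NPs replicate 1 they were 1.26, 0.38 and 0.20. Cd5l, at 0.25 (SE 0.271), and Axl, at 0.06 (SE 0.185), overlapped between these groups. Their values turned to -0.018 and -0.036 without EnzR EVs + HDL NPs replicate 1.

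In this comparison 3 of 9 genes had a log2 fold change below 0, against 47.2% of all genes. By edgeR, 0 of 9 passed an adjusted p of 0.05 (0% of all genes), with 1325 genes at an unadjusted p below 0.05 and 1 gene, none of the 9, called by DESeq2. At an unadjusted p below 0.05, C1qb was lower, 1 of 9 against 6.97% of all genes, and 0 were higher, against 3.58%. Every mouse was higher for 3 of 9, against 8.99% of all genes, and lower for 1 of 9, against 8.58%. The median was 0.08 for the 9 genes and 0.03 for all genes. The C1qb difference was -1.42 (SE 0.439, edgeR adjusted p = 0.461) and rested in part on the value of 191 CPM: without EnzR EVs replicate 1 it was -0.61, and without the 3 Rn45s-rich libraries -0.31. The leave-out of EnzR EVs + HDL NPs replicate 1 turned the median to -0.04, and that of the 3 Rn45s-rich libraries gave 0.11.

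**Figure D3:**
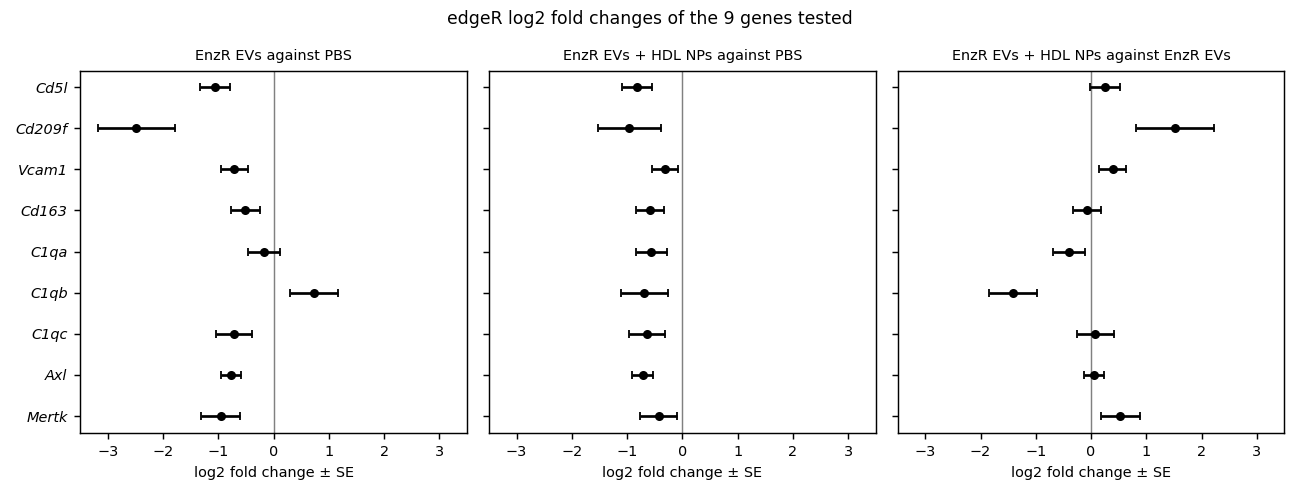
edgeR log2 fold change ± SE (horizontal axis) of the 9 genes tested (vertical axis) in the 3 comparisons, fitted to 9 libraries. Against PBS nearly all points lie left of 0, with C1qb at 0.73 the exception for EnzR EVs, and between the groups that received vesicles Cd209f at 1.52 and C1qb at -1.42 lie farthest from 0.

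Ratios to the C1q genes within a library depend little on how libraries are scaled where levels are well above the 0.5 CPM added, which holds for 5 of the 6 genes but not for Cd209f, and were used to ask whether the other genes differed beyond the C1q level. Relative to the geometric mean of the 3 chains, the differences between EnzR EV and PBS mice on the log2 scale were -0.90 for Cd5l, -0.64 for Axl and -0.55 for Vcam1, each with no overlap and an exact permutation p of 0.10, while Cd209f, Mertk and Cd163, at -1.42, -0.73 and -0.35, overlapped. Ratios lower in every mouse were thus 3 of 6, against 0.845% of all other genes past the filter, whose median difference was 0.07. These 3 are among 18 ratio comparisons, 6 genes in 3 pairs of groups, and an exact permutation p of 0.10 is the smallest possible. The size depended on the chain: with C1qb alone as reference the differences were -1.51, -1.25 and -1.16, and with C1qc alone they were -0.30, -0.04 and 0.05. Without the 3 Rn45s-rich libraries the differences to the mean of the chains were -0.63, -0.50 and -0.42, with 1 EnzR EV mouse left. Between EnzR EVs + HDL NPs and EnzR EVs, the ratios to the mean of the 3 chains were higher without overlap for Cd209f, by 1.58, Mertk, by 1.02, Vcam1, by 0.85, Cd5l, by 0.68, and Axl, by 0.53 (exact permutation p = 0.10 each), and overlapped for Cd163, at 0.37. These are 5 of 6, but 32.2% of all other genes also had a ratio higher in every mouse, with a median difference of 0.52, and C1qb, one of the reference chains, had a log2 fold change of -1.42 there. With C1qb alone as reference the Cd5l difference was 1.39. With C1qc alone the 5 became 0.95, 0.40, 0.23, 0.06 and -0.10, and without the 3 Rn45s-rich libraries 1.58, 0.59, 0.67, 0.52 and 0.48. The Cd209f ratio was 1.92 with 0.1 CPM added and 1.06 with 2 CPM added. Between EnzR EVs + HDL NPs and PBS all 6 ratios overlapped, with differences from -0.21 for Cd5l to 0.30 for Vcam1.

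Over the 9 mice, the genes were correlated to different degrees, and the correlations of C1qb were higher without the 3 Rn45s-rich libraries. Cd5l and Axl gave the highest Pearson r of log2 CPM, at 0.964 (Spearman rho 0.950, exact permutation p = 1.9e-05 and 0.00035, adjusted over 36 pairs to 0.00069 for r and 0.00635 for rho). The r was 0.872 without the 2 mice farthest from the median of Cd5l, and 0.918 for deviations from the group means. Vcam1 and Mertk gave an r of 0.960 (rho 0.950, exact permutation p = 8.0e-05 and 0.00035), 0.872 without the 2 farthest mice and 0.929 for deviations. Cd5l and Cd209f themselves gave an r of 0.617 (rho 0.383, exact permutation p = 0.076 and 0.31). Of 36 pairs, 12 had an adjusted exact permutation p below 0.05 for r, none of them with C1qa or C1qb, and 2 had one for rho. The smallest r of the 12 was 0.773, and 9.46% of all pairs of genes past the filter had an r at least as high. The permutations exchange mice across the 3 groups, so that differences between groups enter these p-values. Cd163 gave an r of 0.314 with C1qc and 0.348 with Cd209f. The 28 pairs without C1qb had a median r of 0.692, and the 8 with C1qb a median of -0.05. In the 6 libraries without high Rn45s, the median r of those 8 pairs was 0.882 and that of the 28 was 0.857, so that the low correlations of C1qb were not seen there. Cd5l and Axl gave 0.966 in these 6, Vcam1 and Mertk 0.968, and Cd5l and Cd209f 0.855. The 6 hold EnzR EVs replicate 2 alone of its group, and no share over all pairs of genes was computed for them. EnzR EVs replicate 1, with C1qb at 191 CPM, was not left out alone, so the part of each of the 3 libraries was not tested. The points share libraries of unequal depth, whose part in the correlations was not tested.

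**Figure D4:**
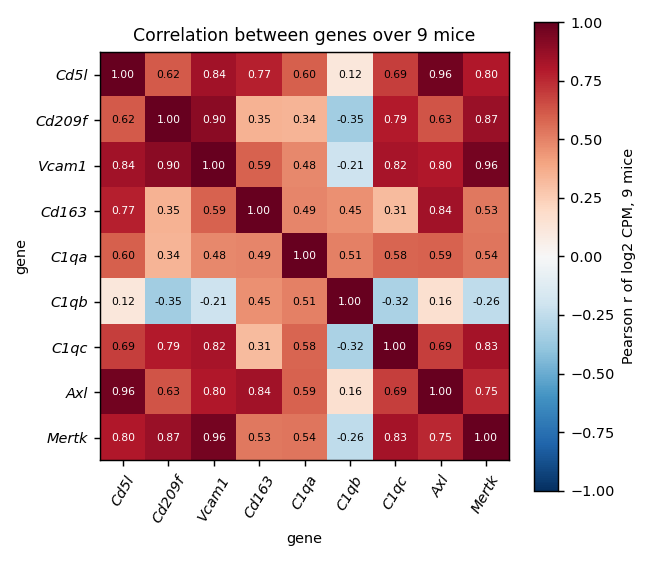
Pearson r of log2 CPM over 9 mice for each pair of the 9 genes tested, genes on both axes, colour from -1 to 1. Cd5l with Axl (0.96) and Vcam1 with Mertk (0.96) are highest, and C1qb has an r below 0 with 4 of its 8 partners when the 3 Rn45s-rich libraries are included.

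The 10 other genes whose log2 CPM followed the mean of the 9 most closely, of 12544 compared over 9 libraries, began with Fcna at an r of 0.969, then Gpd1 (0.961), Slc1a3 (0.942), 2810405K02Rik (0.923), Ephx1 (0.917) and Angptl4 (0.906). Mras, Cd209a, Abca1 and Glul followed, at 0.893, 0.886, 0.878 and 0.878. Fcna encodes ficolin A, a secreted lectin of macrophages that starts the complement cascade, and its log2 fold change for EnzR EVs against PBS was -0.91 (SE 0.252, edgeR adjusted p = 0.928). Cd209a, on the same cluster as Cd209f, was at 4.58, 10.4 and 12.99 CPM in PBS mice and at 7.13, 2.71 and 2.96 CPM in EnzR EV mice. Of 8 genes with a row in a list of the Cd209 family that also holds Clec4g, 3 could be tested. These were Cd209a, Cd209f and Clec4g, with a median log2 fold change of -1.39 for EnzR EVs against PBS. By edgeR, 2 of them were lower at an unadjusted p below 0.05 (1.92% of all genes) and 0 passed adjustment. The 2 are Cd209a and Cd209f, the latter one of the 10 genes.

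Of the 30 other genes of resident macrophages in EnzR EV mice, 26 had a log2 fold change below 0, against 53.5% of all genes, 10 were lower at an unadjusted p below 0.05 and 0 higher, against 1.92% and 1.55% of all genes, and 0 passed adjustment by edgeR. The same shares of all genes apply to the lists that follow. The 4 most abundant were Slc40a1, the iron exporter ferroportin, at -0.36 (SE 0.237), Trf, transferrin, at -0.92 (SE 0.274), Apoe, the lipid carrier, at -0.74 (SE 0.227), and Hmox1, which breaks down haem, at -0.84 (SE 0.320). The median log2 fold change of all 30 genes was -0.64 for EnzR EVs and -0.34 for EnzR EVs + HDL NPs against PBS. Of 28 tested genes of apoptotic cell clearance, 5 were lower and 0 higher at an unadjusted p below 0.05, with a median of -0.19. That list shares Axl and Mertk with the 10, and both are among the 5. Its most abundant genes, the lipid transporter Abca7 and the receptor Lrp1, stood at 0.20 (SE 0.217) and -0.17 (SE 0.311). Of 19 other complement genes tested, 0 were lower and 1 higher, with a median of 0.02, and C3 stood at 0.02 (SE 0.221). Of 22 ligands and partners, 2 were lower and 0 higher, with a median of -0.12. These 2 are also among the 10 lower resident macrophage genes, and 1 of them is among the 5 lower clearance genes.

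Markers of other cells were also read in the fraction, and none of those given here passed adjustment by edgeR. In EnzR EV mice all 15 erythroid markers tested had a log2 fold change below 0 against PBS (53.5% of all genes), with 6 lower at an unadjusted p below 0.05 (1.92% of all genes) and a median of -0.78, against -0.72 for the 9 macrophage genes, and the 19 markers in the table, 4 of them at 0 in all libraries, summed to 293 to 328 CPM in PBS mice, 216 to 289 in EnzR EV mice and 222 to 297 in EnzR EV + HDL NP mice. Monocyte markers, 16 of 16 tested, summed to 12918 to 15431 CPM in PBS mice and 6518 to 14534 in EnzR EV mice, with 12 below 0. Of 14 B and plasma cell markers tested 13 were below 0 and 4 lower at that p, with a median of -0.90, while the sum of the 16 in the table was 195 to 206 CPM in PBS and 189 to 223 CPM in EnzR EV mice. The part of these cells in the levels of the 10 genes was not tested.

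Promoter sequence was available for 8 of the 10 genes, from RefSeq on GRCm38.p6, as 250 bases before to 50 after the start; Vcam1 and C1qa had no entry. The letters GAGGAA, the core bound by PU.1 and by Spi-C, factors of macrophage and red pulp macrophage identity, and TGCTGA, letters bound by MAF factors, were searched on both strands. GAGGAA was found in 4 of the 8 windows (Cd5l, C1qb, C1qc and Axl) and in 28.3% of all 32851 promoters of that length. TGCTGA was found in 2 of the 8 (Cd5l and C1qb) and in 19.5% of all. The windows of Cd5l and Axl, the pair with the highest correlation, are shown with that of Cd209f, in which neither set of letters occurs, each 5′ to 3′ on the gene's strand with matches to either motif on either strand in capitals.
Cd5l, chr3:87357631-87357930, plus strand: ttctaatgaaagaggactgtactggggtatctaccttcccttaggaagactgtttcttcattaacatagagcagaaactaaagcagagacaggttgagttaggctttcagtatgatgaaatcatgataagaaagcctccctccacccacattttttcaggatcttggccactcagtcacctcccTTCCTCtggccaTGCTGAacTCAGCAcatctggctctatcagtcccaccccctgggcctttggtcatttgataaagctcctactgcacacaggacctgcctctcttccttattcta
Axl, chr7:25788684-25788983, minus strand: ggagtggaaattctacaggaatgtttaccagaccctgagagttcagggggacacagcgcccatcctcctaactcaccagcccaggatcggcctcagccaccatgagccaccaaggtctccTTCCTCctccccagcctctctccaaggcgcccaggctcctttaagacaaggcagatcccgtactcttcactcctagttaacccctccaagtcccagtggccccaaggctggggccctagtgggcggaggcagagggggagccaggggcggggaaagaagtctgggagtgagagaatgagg
Cd209f, chr8:4105715-4106014, minus strand: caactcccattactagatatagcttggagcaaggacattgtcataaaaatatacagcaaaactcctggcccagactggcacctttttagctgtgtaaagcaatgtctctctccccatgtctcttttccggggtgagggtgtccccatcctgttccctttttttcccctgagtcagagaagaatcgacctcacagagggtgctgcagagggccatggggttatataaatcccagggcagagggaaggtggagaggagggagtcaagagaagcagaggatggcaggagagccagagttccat
In Cd5l the GAGGAA match is on the opposite strand and begins at -66 from the start site, and 2 TGCTGA matches on opposite strands begin at -54 and -46. Axl holds 1 GAGGAA match, on the opposite strand at -130. The matches are letters in these windows and were not measured as binding.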

How the data were processed

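The authors deposited, for each of 9 libraries, raw read counts per gene. Per the study's methods, these came from stranded, rRNA-depleted single-end reads of 75 bp (200 ng of total RNA per library), trimmed (cutadapt 1.13 in the submitters' notes), filtered for rRNA, aligned to mm10 with STAR and counted with HTSeq 0.6.1p1 on the UCSC annotation. Groups and replicate numbers came from the labels, and 0 columns were unmapped. The counts entered edgeR 4.0.16 (R 4.3.3) with the default filter on low counts, TMM, and a robust quasi-likelihood fit to all 9 libraries with 1 coefficient per group, with Benjamini-Hochberg adjustment over 12553 genes and a threshold of 0.05 (biological coefficient of variation 0.259). Log2 CPM used a prior count of 2, and ratios to C1q added 0.5 CPM. For single genes, exact permutation tests over mice (two-sided) were added. DESeq2 1.42.0 and limma 3.58.1 were alternatives, and fits were tested on simulated data.

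The members and the other gene lists, 15 lists with the members included, were chosen with earlier results of these data known. Of 264 list entries, 260 matched the table. Named genes are every member, the most abundant of the other lists (up to 4 each) and the 10 genes most like the members' mean. Emr1 and Marco were named outside this rule, after their values were seen. Emr1 served as a check of the cell type and Marco as an example of a level near detection. Ratios were planned for 7 genes and made for 6, since Cd209b failed the filter. Coordinates and exon lengths are from GENCODE M21 on GRCm38, the assembly of mm10. A floor of 3 counts is 0.160 CPM in the deepest library and 1.65 CPM in the shallowest; floors and 95% Poisson limits cover counting error only, since reads carry no molecular identifiers. Nothing states that the mice of a group came from separate litters or cages, so p-values measure the spread between these mice.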

Additional observations from a re-analysis of the deposited data

How the results depend on the processing

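Over 25 other settings, 9 of which left out 1 library each, 0 genes of the set were called in any comparison, with the exception of limma's sample quality weights. For EnzR EVs against PBS these weights called 6 (Cd5l, Cd209f, Vcam1, C1qc, Axl and Mertk) among 1972 of the 12553 genes tested. At an unadjusted p below 0.05 by limma with those weights, 7 of the 9 were lower, against 18.5% of all genes. The weights called 8 and 639 genes in the other comparisons, none in the set. The cause was not tested. DESeq2 was run under 3 filter settings, 2 of them added with its calls in view, and all are given: with the comparisons ordered as in the report (EnzR EVs and then EnzR EVs + HDL NPs, each set against PBS, and last the vesicle groups against each other), it called 8, 7 and 1 genes with its default filter, 11, 8 and 1 after edgeR's filter and 14, 2 and 1 with its filter set at 0.05, none of them in the set. The default is the DESeq2 value given elsewhere. Counts with edgeR stayed at 0 to 10 genes in these comparisons under the other settings; leaving out the 3 Rn45s-rich libraries gave the 10.

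Directions reversed in the cases below, whose causes were not tested. For EnzR EVs against PBS, C1qb was -0.035 without the 2 libraries of lowest total and -0.33 without the 3 Rn45s-rich libraries, and leaving out 1 library gave -0.077 to 1.12 for C1qb and -0.37 to 0.16 for C1qa (0.16 without PBS replicate 3 and 0.010 without EnzR EVs replicate 3). For EnzR EVs + HDL NPs against PBS, leaving out 1 library gave -0.68 to 0.055 for Mertk. For EnzR EVs + HDL NPs against EnzR EVs, Cd163 was 0.18 with library size only, 0.076 without the 2 libraries of lowest total, 0.11 without the 3 Rn45s-rich libraries and 0.055 with the Rn45s share as covariate. C1qc was -0.12, -0.34 and -0.50 in the last 3 of these, and Axl -0.0078 with the covariate. Leaving out 1 library in that comparison gave -0.25 to 0.077 for Cd163, -0.11 to 0.35 for C1qc, -0.018 to 0.34 for Cd5l and -0.036 to 0.11 for Axl. The settings with Rn45s, also for the ratios and correlations, were chosen after seeing the data.

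Mice of different groups with the same replicate number had a correlation of deviations from -0.18 to 0.49 (9 pairs), with a mean of 0.17. The 18 pairs with different numbers had a mean of -0.08. Not all of the 9 were above 0.1. PBS replicate 3 also correlated better with EnzR EVs replicate 2 than with EnzR EVs replicate 3, so numbers were not taken as pairs. Whether mice with the same number share a batch was not tested. With the replicate block the medians were -0.73, -0.58 and 0.16 in the order above, and 0 genes of the set were called.

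Depth limits Cd209f and Cd209b most, and with 3 mice a group exact tests cannot go below 0.10.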

Other observations

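Marker lists of other cells had medians below 0. For EnzR EVs against PBS, the median log2 fold change was -0.38 for 11 tested NK and T cell markers, -0.34 for 14 dendritic cell markers, -0.33 for 13 platelet and megakaryocyte markers, -0.32 for 16 stromal and endothelial markers, -0.31 for 16 monocyte markers and -0.14 for 17 neutrophil markers, against -0.03 for all genes, and 0 of these passed an adjusted p of 0.05 by edgeR, with 2, 1, 0, 1, 2 and 0 lower at an unadjusted p below 0.05, against 1.92% of all genes. At that p by edgeR, 1 dendritic cell marker was higher, and 0 markers of the other lists given here, against 1.55% of all genes. The 6 general control genes had a median of -0.04. Of the 4 most abundant monocyte markers, the lysozyme gene Lyz2, Mpeg1 and F13a1 overlapped between groups, at -0.44 (SE 0.321), -0.47 (SE 0.375) and -0.16 (SE 0.256). The other, Fn1, fibronectin, was at 1503, 1228 and 1185 CPM in PBS mice and at 533, 923 and 783 CPM in EnzR EV mice, with no overlap and a log2 fold change of -0.81 (SE 0.221, edgeR adjusted p = 0.928).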
